A study of Mus musculus with 4 samples.

Results

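Cadherins and protocadherins were examined on bead arrays of NSPC, the neural stem and progenitor cells of the mouse, from which neurons and glia arise. The members were chosen by gene symbol: every probe annotated to a numbered Cdh gene, to a Pcdh gene, or to Celsr1, Celsr2, Celsr3, Fat1, Fat3, Fat4 or Dchs1. This gave 95 genes with 161 probes, out of 19057 named genes and 45259 probes on the array. The arrays came from 2 groups of 2 biological replicates, NSPC overexpressing Bmi1 and transgenic control NSPC, both derived from the neocortex of a conditional Cre/LoxP mouse on the C57BL/6 strain and grown as floating neurospheres with EGF and FGF2 (20 ng/ml each), harvested on day 5. The labels do not state the Cre driver, the age of the animals or whether cells were pooled. Bmi1 is a subunit of polycomb repressive complex 1, which silences developmental genes.

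Cadherins are membrane proteins that bind their like on the neighbouring cell through calcium-dependent extracellular repeats. Classical cadherins link through catenins to actin and build the adherens junctions that hold neural progenitors in their epithelium. Protocadherins bind more weakly and give neural cells a surface identity, and the large cadherins of the Celsr, Fat and Dchs families orient cells within the tissue plane (planar polarity).

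The direction of every difference below depends on a naming conflict. The scanner table heads its columns as control or Bmi1 cells, while the processed table of the same arrays files them the other way round: each of its columns correlated at 1.00 (Spearman, across probes) with an array of the opposite name and at most at 0.899 with any other. Arrays are named here by the scanner headers, as Bmi1-labelled and control-labelled, and every sign turns if the processed table is right. The Bmi1 probe did not settle this: its log2 signals were 6.14 and 6.88 on the Bmi1-labelled arrays and 6.45 and 6.10 on the control-labelled arrays, so the groups overlapped (difference 0.24, SE 0.29, limma adjusted p = 0.668), and the labels do not say whether it reads the transgene.

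The arrays detected 16495 to 18242 probes each. Control array 1 stood apart, with signals of 114.7 to 970.5 for the 4 Xist probes, which stayed at 8.4 or below on the remaining arrays. It also held the most oligodendrocyte marker signal: the 4 markers on the array summed to 213.5 and 129.4 on the Bmi1-labelled arrays, against 3303 and 762.6 on control arrays 1 and 2. The astrocyte markers, 3 of 4 detected, summed to 4882 and 3066 against 7825 and 8980, and the mitosis markers, 4 of 5 on the array and all 4 detected, to 1498 and 2511 against 518.6 and 888.9. Progenitor markers were detected for 5 of 7 (Nes, Sox2, Vim, Fabp7 and Slc1a3, but not Pax6 or Prom1), and neuron markers for 4 of 5 (not Tubb3), with summed signals of 2544 and 1640 against 2618 and 2592. All these sums add signals before normalization. On control array 1 they came mostly from 1 gene each: Mbp (2872.7), Aldoc (6085.4), Plk1 (316.7) and Map2 (2186.5). Endothelial and mesenchymal markers were detected for 0 of 5 genes each. Among microglial markers Aif1 and Csf1r passed detection at signals of at most 14.3, and among epithelial markers Krt8 at no more than 10.7. The part of cell type makeup in the results below was not tested, and in bulk samples fewer cells of a type and less RNA per cell cannot be told apart.

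A probe was called detected when its detection p was under 0.05 on 2 or more of the 4 arrays, whatever their group. By this rule 36 of the 95 member genes (37.9%) were detected, against 52.7% of all named genes, and 50 of the 161 member probes (31.1%), against 40.3% of all probes. The count per array was 38 and 37 member genes on the Bmi1-labelled arrays and 38 and 36 on the control-labelled arrays. The 59 undetected genes had 92 probes, whose signals ran from -12.3 to 16.5, and 49 of these genes were detected on no array and 10 on 1 array.

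**Figure D1:**
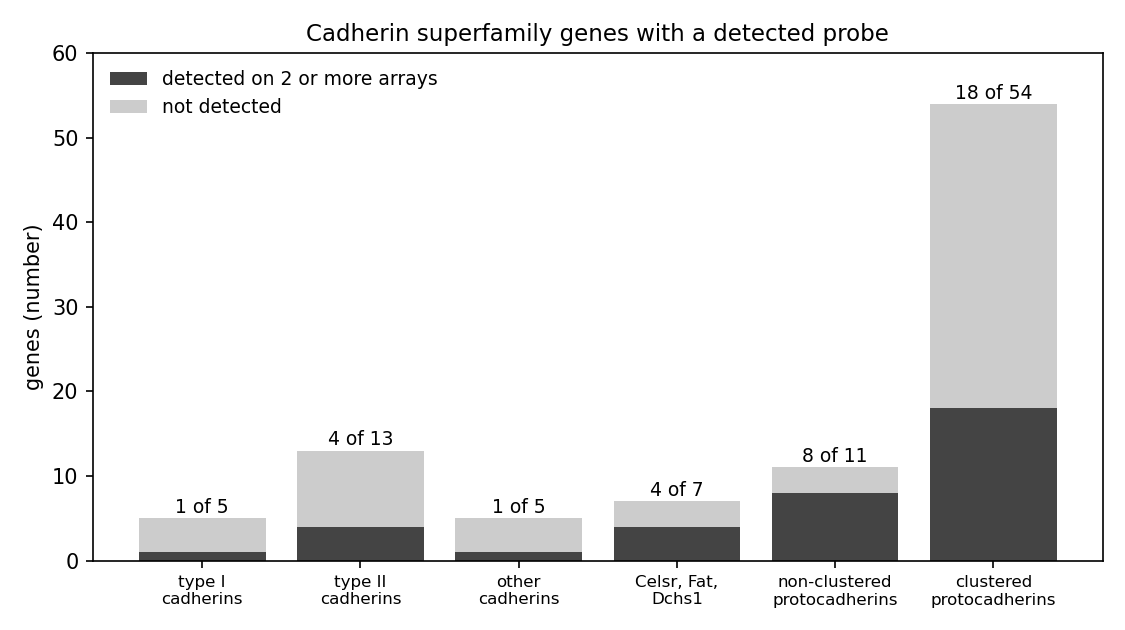
Number of member genes in each class (vertical axis) with a probe detected on 2 or more arrays (dark) and without (light). Non-clustered protocadherins had 8 of 11 genes detected, and type I classical cadherins 1 of 5.

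Detection was uneven between the classes. Non-clustered protocadherins were detected for 8 of 11 genes and the large cadherins for 4 of 7. Clustered protocadherins were detected for 18 of 54, type II classical cadherins for 4 of 13, type I for 1 of 5 and the remaining cadherins for 1 of 5. A gene below detection may still be transcribed, since probes differ in how well they bind and where they lie.

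Between the groups, the detected members leaned towards lower values on the Bmi1-labelled arrays, but no member passed the test. limma on normalized log2 values, with p adjusted over all 12809 detected features (1 probe per gene, the brightest), called 0 members and 0 of all features (0%) at an adjusted p under 0.05. At an unadjusted p under 0.05, 7 of the 36 members (19.4%) were past the threshold, against 22% of all features, so the number was no higher than the background. All 7 were lower on the Bmi1-labelled arrays, against 9.79% of all features past the threshold on that side and 12.2% on the other. They were Celsr2, Celsr3, Pcdh1, Pcdh9, Pcdhb7, Cdh6 and Pcdhac2. Pcdhb7 was detected on the control-labelled arrays alone and so had to be lower; among features detected on at least 1 array of each group, 6 of 35 members (17.1%) were past the threshold, all lower, against 21.7% of features in either direction and 9.57% lower. The median log2 difference of the 36 members was -0.17, against 0.01 for all features, and 22 members were below 0 and 14 above, against 49.1% of all features below 0. The groups did not overlap for 23 members (63.9%), against 54.8% of all features, with 15 lower (background 26.2%) and 8 higher (background 28.6%).

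**Figure D2:**
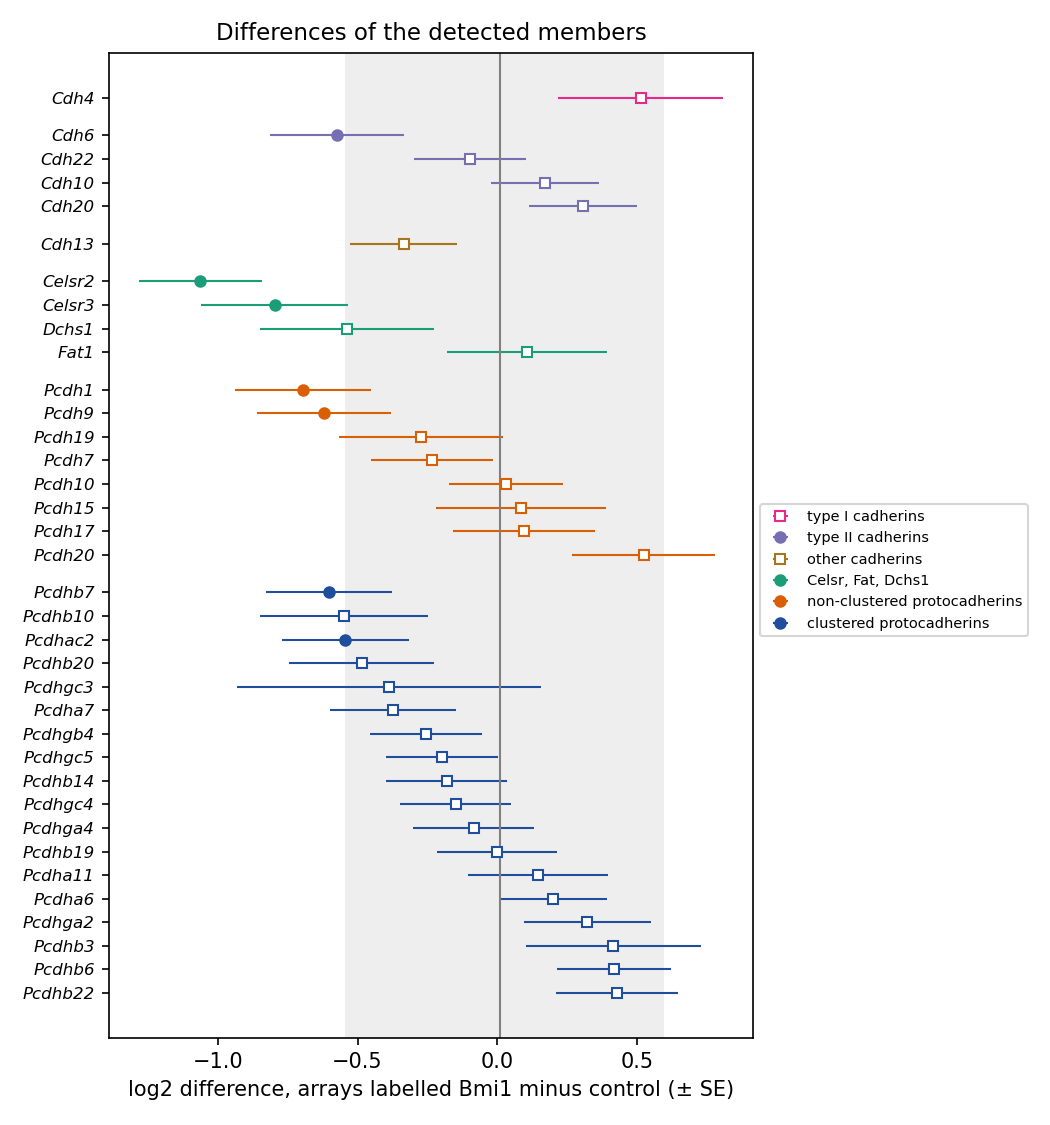
Log2 difference of each detected member, Bmi1-labelled minus control-labelled arrays, with its standard error, by class. Filled circles mark the 7 members with an unadjusted p under 0.05, all below 0 (Pcdhb7 detected on the control-labelled arrays alone), and the grey band runs from the 10th to the 90th percentile of all features (-0.54 to 0.59).

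The counts changed with the array left out. Without control array 1, 2 members were past the unadjusted threshold, without the second Bmi1-labelled array 3, and without control array 2 there were 11. The members' median log2 deviation from each gene's mean was -0.10 and -0.09 on the Bmi1-labelled arrays, and 0.18 and 0.01 on control arrays 1 and 2. With the arrays scaled to the median of the probes detected on all of them, the median difference of all features shifted to 0.16 and that of the members to 0.01, which left the members 0.15 below all features, against 0.17 under quantile normalization. The gap (members minus all features) narrowed to -0.0849 without control array 1, -0.0847 with an offset of 50 in place of 16 and -0.0238 over all 95 members without the detection filter.

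The classical type I cadherins, the best studied adhesion molecules of the superfamily, were represented by Cdh4 (R-cadherin, a retinal and neural cadherin). Its brighter probe had log2 signals of 11.32 and 11.21 on the Bmi1-labelled arrays and 10.32 and 11.18 on the control-labelled arrays. Control array 1 was low and the other 3 arrays lay close together, with a difference of 0.51 (SE 0.30, adjusted p = 0.355) that was 0.08 without control array 1. The dimmer Cdh4 probe ran the other way, with signals of 79.6 and 63.7 against 116.6 and 169.8 and a difference of -0.50 (SE 0.22). The annotation gives an accession for the dimmer probe and none for the brighter, so the gene's direction is not settled by these probes, whose mean differed by 0.0052.

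Cdh2, which encodes N-cadherin, the cadherin known from the junctions of neural progenitors, was not detected. Its 2 probes gave signals of -1.2 to 5.3 over the 4 arrays and passed detection on none. This does not show that Cdh2 is silent, since probes differ in how well they bind. Cdh1 (E-cadherin of epithelia) passed on 1 array with a signal of at most 8.6, and Cdh3 (P-cadherin) and Cdh15 (M-cadherin of muscle) on none.

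Among the type II classical cadherins, which pattern brain regions and nuclei, Cdh6, Cdh22, Cdh10 and Cdh20 were detected. Cdh6 had log2 signals of 5.35 and 5.69 on the Bmi1-labelled arrays and 6.31 and 5.87 on the control-labelled arrays. Both Bmi1-labelled arrays lay below both controls, by -0.57 (SE 0.24, adjusted p = 0.221), and by -0.35 without control array 1 and -0.36 with an offset of 50. Cdh22 stood at 5.51 and 5.58 against 5.53 and 5.76, with overlapping groups (difference -0.10, SE 0.20). Cdh10 stood at 5.08 on each Bmi1-labelled array against 4.97 and 4.85, a difference of 0.17 (SE 0.19) with no overlap that was 0.10 without control array 2. Before normalization the signals of this probe overlapped, at 17.3 and 15 against 16.4 and 14.4. The dimmer detected Cdh10 probe differed by 0.14 (SE 0.21) and overlapped. Cdh20 differed by 0.31 (SE 0.19) without overlap. These 3 genes lay near the floor of the normalized scale, and for none was the adjusted p below 0.395. Cdh6 was similarly low on the Bmi1-labelled arrays, with signals of 24 and 27.7 against 70.3 and 50.5 on the control-labelled arrays. The type II genes not detected were Cdh5 (VE-cadherin of endothelium), Cdh7, Cdh8, Cdh9, Cdh11, Cdh12, Cdh18, Cdh19 and Cdh24, with signals of at most 7.7.

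Cdh13 (T-cadherin) is anchored to the membrane by a lipid and lacks the tail that binds catenins. It had log2 signals of 8.52 and 8.46 on the Bmi1-labelled arrays and 8.84 and 8.81 on the control-labelled arrays. Each pair agreed closely and the pairs did not overlap, with a difference of -0.34 (95% confidence interval -0.78 to 0.11, adjusted p = 0.347). Its 2 other probes were also detected on all arrays and gave -0.46 (SE 0.22) and -0.19 (SE 0.24), the latter with overlapping groups. Leaving out any array kept the difference of the brightest probe between -0.37 and -0.30. With median scaling over all probes it was -0.63. Cdh16, Cdh17, Cdh23 and Cdh26, known from kidney, intestine, inner ear hair cells and epithelium, were not detected.

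Among the large cadherins, the flamingo family members Celsr2 and Celsr3 had the largest differences of all 36 members. These multi-pass cadherins act in planar polarity, in the beating of ependymal cilia (Celsr2) and in axon guidance (Celsr3). Celsr2 gave signals of 106 and 74.1 on the Bmi1-labelled arrays and 297.3 and 229.8 on the control-labelled arrays, or 6.96 and 6.81 against 8.15 and 7.74 as normalized log2 values. Its mean was 6.88 ± 0.10 against 7.95 ± 0.29 (SD, n = 2 each). Both Bmi1-labelled arrays lay below both controls, with a log2 difference of -1.06 (SE 0.22, 95% confidence interval -1.58 to -0.54), which is 2.09-fold higher in the controls. The limma adjusted p was 0.132, the smallest of any feature and shared by 460 of them. Without control array 1 the difference was -0.86, and over the 4 arrays left out in turn it ran from -1.28 to -0.86. The other Celsr2 probe was not detected on any array.

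Celsr3 gave signals of 57.9 and 27.9 on the Bmi1-labelled arrays and 123.6 and 91.9 on the control-labelled arrays. Its log2 signals of 6.24 and 5.70 lay below the controls' 6.98 and 6.55, by -0.80 (SE 0.26, adjusted p = 0.161). The difference was -0.53 without the second Bmi1-labelled array and -0.58 without control array 1. Its dimmer probe, detected on 2 arrays with signals of at most 10.2, differed by 0.08 (SE 0.20), and the mean of both probes by -0.36. Celsr1, the member of the family known from dividing progenitors, was detected on 1 array with a highest signal of 13.7.

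The sequences upstream of the Celsr2 and Celsr3 transcription starts are shown because this pair of related genes led the members' differences. They come from RefSeq (GRCm38.p6), read 5′ to 3′ on the gene's strand over the 250 bases before the annotated start, with 2 motifs in capitals: CAGGTG, an E-box bound by the Snail and Zeb repressors, and GGGCGG, the GC box bound by Sp1, each searched on both strands.
Celsr2, chr3:108415580-108415829, minus strand: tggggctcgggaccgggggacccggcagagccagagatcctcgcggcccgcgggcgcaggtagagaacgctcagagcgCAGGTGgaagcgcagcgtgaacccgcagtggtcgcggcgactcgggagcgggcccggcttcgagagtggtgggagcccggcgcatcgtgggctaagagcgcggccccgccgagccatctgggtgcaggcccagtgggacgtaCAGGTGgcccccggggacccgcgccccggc
Celsr3, chr9:108825795-108826044, plus strand: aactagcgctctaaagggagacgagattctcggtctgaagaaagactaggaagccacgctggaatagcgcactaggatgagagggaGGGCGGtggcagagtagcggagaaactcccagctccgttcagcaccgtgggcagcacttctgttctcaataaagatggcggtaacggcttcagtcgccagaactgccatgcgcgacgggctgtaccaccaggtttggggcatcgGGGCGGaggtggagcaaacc

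The Celsr2 stretch held 2 copies of CAGGTG and 0 of GGGCGG, and the Celsr3 stretch 0 and 2, with no overlap between motifs. Of the upstream windows of the same length of 27025 genes, 17.1% held CAGGTG and 32.9% GGGCGG. The stretches held 32 and 17 CG dinucleotides for Celsr2 and Celsr3, against a median of 6 over all windows. Of the 95 members 27 had a window in this table, with a median of 11 CG dinucleotides, CAGGTG in 14.8% and GGGCGG in 37%. The median was 13 over the 14 detected members with a window and 11 over the 13 undetected ones. The clustered protocadherins had no window in this table, so these values do not describe them.

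Fat1 and Dchs1 belong to the protocadherin-like giants that signal between neighbouring cells, and Fat1 is known from the apical junctions of radial glia. Fat1 had log2 signals of 9.90 and 10.57 on the Bmi1-labelled arrays and 10.37 and 9.90 on the control-labelled arrays. The groups overlapped, with a difference of 0.11 (95% confidence interval -0.57 to 0.78, adjusted p = 0.862), and its other detected probe gave -0.14 (SE 0.31). The sign of Fat1 turned when control array 2 or the second Bmi1-labelled array was left out, with median scaling over all probes and with the mean of its probes. Dchs1, the ligand of the Fat4 receptor, stood at 6.73 and 6.80 against 7.77 and 6.83. Control array 1 was high and the other 3 arrays lay together, so the difference of -0.54 (SE 0.31) was -0.07 without that array. Fat3 and Fat4 were not detected on any array, with signals of at most 8.6.

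**Figure D3:**
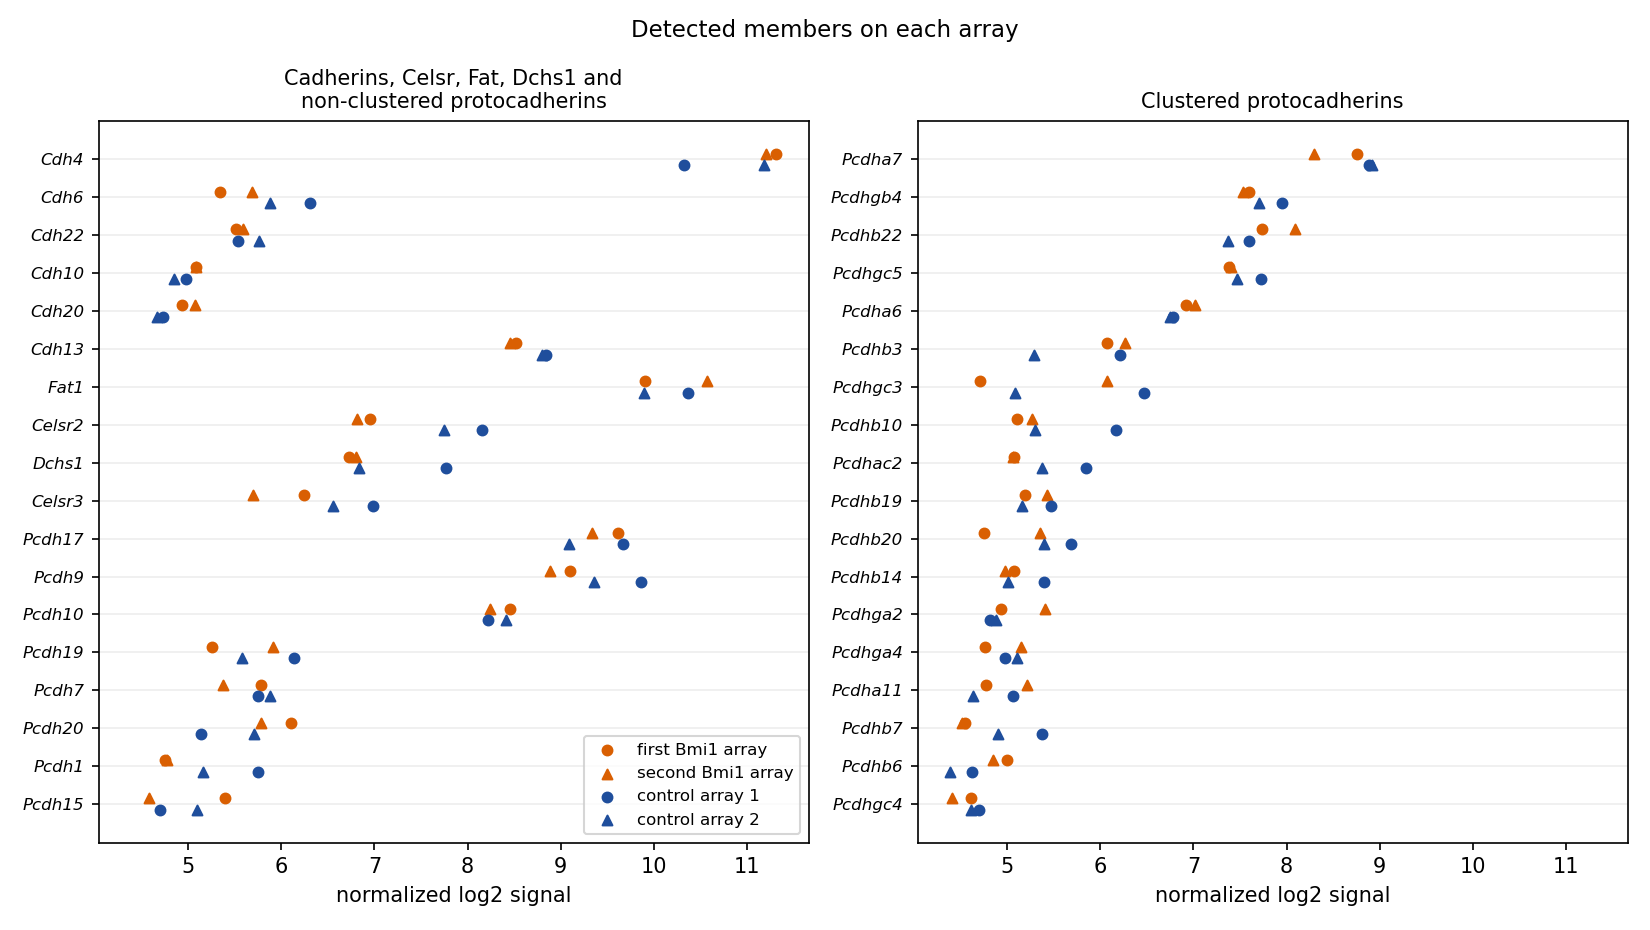
Normalized log2 signal (horizontal axis) of each detected member on each array, with the 2 Bmi1-labelled arrays in orange above the 2 control-labelled arrays in blue. Celsr2, Celsr3, Pcdh9 and Cdh13 are lower on the Bmi1-labelled arrays without overlap, Pcdhb22 and Cdh20 are higher without overlap, and Fat1, Pcdh17 and Pcdh10 overlap. In all, 15 members are lower without overlap and 8 higher, against 26.2% and 28.6% of all features. Levels of different genes are not comparable, since each probe has its own affinity.

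Of the non-clustered protocadherins, which act in cell sorting, axon tracts and synapses, Pcdh17, Pcdh9 and Pcdh10 had the brightest probes. Pcdh9 gave signals of 526.7 and 379.4 on the Bmi1-labelled arrays and 980.5 and 709 on the control-labelled arrays. Its log2 signals of 9.10 and 8.89 lay below the controls' 9.87 and 9.36, by -0.62 (SE 0.24, 95% confidence interval -1.18 to -0.06, adjusted p = 0.197). The difference was -0.37 without control array 1 and -0.89 without control array 2. Its dimmer detected probes gave -0.33 (SE 0.21) and -0.08 (SE 0.27), and the mean of the 3 probes differed by -0.34.

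Pcdh17 had log2 signals of 9.61 and 9.33 on the Bmi1-labelled arrays and 9.67 and 9.09 on the control-labelled arrays. Both Bmi1-labelled arrays lay between the controls, with a difference of 0.10 (95% confidence interval -0.50 to 0.69), and its dimmer probe gave -0.15 (SE 0.33). Pcdh10, a protocadherin of striatal and thalamic axon tracts, stood at 8.46 and 8.24 against 8.22 and 8.41, a difference of 0.03 (95% confidence interval -0.45 to 0.51). Its 3 probes gave 0.03, 0.26 (SE 0.22) and -0.31 (SE 0.29), so they did not share a sign. Both Pcdh17 and Pcdh10 turned below 0 with median scaling over all probes and with the mean of their probes.

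Pcdh1 had signals of 10.5 and 10.1 on the Bmi1-labelled arrays and 41.8 and 23.3 on the control-labelled arrays. Its log2 signals of 4.74 and 4.77, near the floor of the normalized scale, lay below the controls' 5.75 and 5.16, by -0.69 (SE 0.24, adjusted p = 0.174). The difference was -0.39 without control array 1, and the dimmer probe, detected on 2 arrays, gave -0.02 (SE 0.23), with a mean of both probes at -0.35.

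Pcdh20 lay on the other side, with log2 signals of 6.11 and 5.78 on the Bmi1-labelled arrays and 5.14 and 5.71 on the control-labelled arrays. The groups did not overlap, with a difference of 0.52 (SE 0.26, limma adjusted p = 0.280) that was 0.23 without control array 1. Before normalization the Pcdh20 signals overlapped, at 51.4 and 30.4 against 20.5 and 43. Pcdh7 (-0.23, SE 0.22), Pcdh15 (0.09, SE 0.30), which builds the tip links of hair cells and is known from oligodendrocyte progenitors, and Pcdh19 (-0.27, SE 0.29) overlapped between the groups. The Pcdh7 difference was -0.0333 without the second Bmi1-labelled array. Pcdh19, an X-linked gene whose loss causes epilepsy in humans, was brightest on control array 1, the array with Xist signal, with signals of 21.8 and 34 on the Bmi1-labelled arrays and 60.2 and 37.7 on the control-labelled arrays. Without that array its difference was 0.01. Pcdh8, Pcdh12, known from endothelium, and Pcdh18 were not detected.

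The clustered protocadherins are encoded in 3 neighbouring gene arrays, alpha, beta and gamma, from which each neuron expresses its own small set of isoforms. Of 12 alpha genes 4 were detected, of 22 beta genes 8, and of 20 gamma genes 6. Alpha and gamma isoforms share constant exons within their array, and beta genes are similar in sequence. The probes' positions were not analysed here, so a value named for an isoform can hold signal of its neighbours. Of 4 Pcdha7 probes 2 were detected, and of 3 Pcdha6 probes 1 was, on all arrays, while the others gave signals of at most 2.1.

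Pcdha7 had log2 signals of 8.76 and 8.30 on the Bmi1-labelled arrays and 8.89 and 8.91 on the control-labelled arrays. The second Bmi1-labelled array was lowest, with a difference of -0.37 (SE 0.23, adjusted p = 0.374), which was -0.14 without it, and the other detected probe gave -0.15 (SE 0.31). Pcdhgb4 stood at 7.60 and 7.54 against 7.95 and 7.70 (difference -0.26, SE 0.20). Pcdhgc5 lay in the same order, by -0.20 (SE 0.20), and neither overlapped between the groups. When control array 1 was left out, Pcdhgb4 differed by -0.13 and Pcdhgc5 by -0.0677.

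Pcdhb22 had log2 signals of 7.73 and 8.09 on the Bmi1-labelled arrays and 7.60 and 7.37 on the control-labelled arrays. It lay on the higher side without overlap, by 0.43 (SE 0.22, adjusted p = 0.299), and by 0.25 without the second Bmi1-labelled array and 0.0916 with median scaling over all probes. Before normalization its signals overlapped, at 193.4 and 205.7 against 198.4 and 175. Pcdha6 also lay higher after normalization (0.20, SE 0.19), but its signals of 103.6 and 86.3 against 105.2 and 108.3 were in the opposite order, and the sign turned with median scaling over all probes.

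Pcdhac2, an alpha isoform of the C type, had log2 signals of 5.08 and 5.06 on the Bmi1-labelled arrays and 5.85 and 5.38 on the control-labelled arrays. Both Bmi1-labelled arrays were lower, by -0.54 (SE 0.23, adjusted p = 0.221), or by -0.29 without control array 1 and by -0.30 with an offset of 50. They lay near the floor of the normalized scale, with signals of 17.2 and 14.7. Pcdhb7 was detected on neither Bmi1-labelled array and on both control-labelled arrays, with log2 signals of 4.55 and 4.51 on the Bmi1-labelled arrays and 5.37 and 4.90 on the control-labelled arrays. With the Bmi1-labelled arrays set to their lowest detected signal, or the probe's own where higher, the controls were 1.39-fold higher on average. This is a point estimate, not a lower limit. The log2 difference itself was -0.60 (95% confidence interval -1.14 to -0.07, limma adjusted p = 0.191), and -0.36 without control array 1. Pcdhb7 passed the filter through the controls alone, so a difference was built into its selection.

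The other 11 clustered genes, named here with their log2 differences, had adjusted p-values of 0.278 or more. Below 0 were Pcdhb10 (-0.55), Pcdhb20 (-0.49), Pcdhgc3 (-0.39), Pcdhb14 (-0.18), Pcdhgc4 (-0.15), Pcdhga4 (-0.08) and Pcdhb19 (-0.003). Above 0 were Pcdhb6 (0.42), Pcdhb3 (0.42), Pcdhga2 (0.32) and Pcdha11 (0.15). Several moved with the array left out: Pcdhb10 was -0.11 without control array 1, Pcdhb20 -0.18 and Pcdhgc4 -0.25 without the first Bmi1-labelled array, and Pcdhga2 0.0932 and Pcdhgc4 -0.0521 without the second. The signs of Pcdhb3, Pcdhgc3, Pcdhb14, Pcdhb19, Pcdhga4 and Pcdha11 turned when 1 array was left out. Pcdhgc3 was the most variable member, with signals of 9.8 and 39.6 on the Bmi1-labelled arrays and 80.8 and 21 on the control-labelled arrays, so each group held a low and a high array. Over the whole cluster 12 genes were below 0 and 6 above, with a median of -0.17, the same as the -0.17 of the 18 other members.

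**Figure D4:**
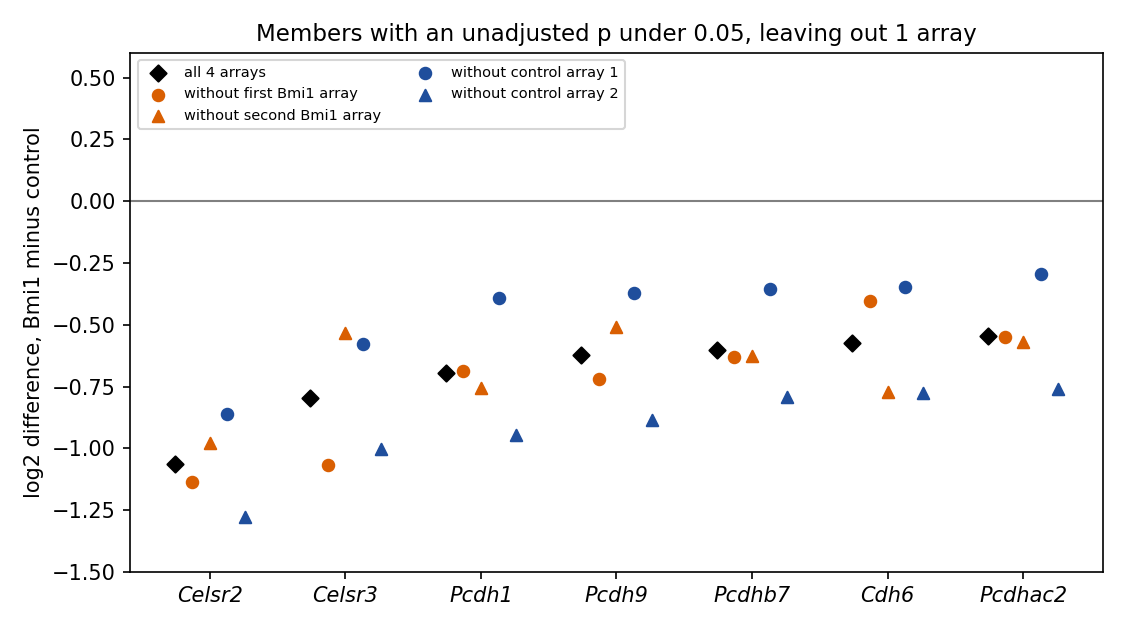
Log2 difference, Bmi1-labelled minus control-labelled arrays, of the 7 members with an unadjusted p under 0.05 (Pcdhb7 detected on the control-labelled arrays alone), with all 4 arrays (diamonds) and with each array left out. All values stay below 0, which the selection largely fixed, since none of the 7 overlapped between the groups on these same arrays. Without control array 1 they run from -0.86 (Celsr2) to -0.29 (Pcdhac2), and without control array 2 from -1.28 (Celsr2) to -0.76 (Pcdhac2).

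The partners through which cadherins act differed in both directions. Of 54 genes listed for junctions, planar polarity, processing and control of the protocadherin cluster, 51 were on the array and 39 were detected. None of the 39 passed with limma at an adjusted p under 0.05, and at an unadjusted p under 0.05 13 did (33.3%, against 22% of all features), 9 higher and 4 lower on the Bmi1-labelled arrays. The median difference was -0.01, as against 0.01 for all features. The 13 became 3 without control array 1, 5 when control array 2 was left out and 6 when the second Bmi1-labelled array was.

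In the junction group, Ctnnb1, which encodes the beta-catenin that links cadherins to actin and signals for Wnt, had log2 signals of 10.84 and 11.34 on the Bmi1-labelled arrays and 10.34 and 10.47 on the control-labelled arrays. It was higher without overlap, by 0.68 (SE 0.23, adjusted p = 0.168). Vcl (vinculin, an actin anchor) differed by 0.81 (SE 0.20, adjusted p = 0.132) and the catenin-like Pkp4 by 0.50 (SE 0.21), while Nectin2, an adhesion receptor of junctions, differed by -0.64 (SE 0.21) and the polarity protein gene Pard6a by -0.50 (SE 0.19). With the mean of all detected probes of a gene, Ctnnb1 differed by 0.40, Pkp4 by 0.0236 and Pard6a by -0.27, with unadjusted limma p of 0.106, 0.9 and 0.169. With median scaling over all probes Vcl differed by 0.48, Pkp4 by 0.28 and Nectin2 by -0.97. When the second Bmi1-labelled array was left out, Ctnnb1 differed by 0.43 and Pkp4 by 0.33. The alpha-catenin gene Ctnna1 differed by 0.05 (SE 0.20), with overlapping groups.

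Of 8 detected planar polarity partners 6 were below 0, against 49.1% of all features, with a median difference of -0.05. Fjx1, whose fly relative is a kinase that phosphorylates the Fat and Dachsous cadherins, stood at 9.62 and 10.09 on the Bmi1-labelled arrays and 10.43 and 10.49 on the control-labelled arrays, a difference of -0.60 (SE 0.23, adjusted p = 0.191). Scrib, a scaffold of cell polarity, differed by -0.55 (SE 0.23, adjusted p = 0.224). Fjx1 differed by -0.37 without the first Bmi1-labelled array, and Scrib by -0.30 without the second and by -0.88 with median scaling over all probes. Vangl2, a core polarity protein that works with Celsr proteins, differed by -0.06 (SE 0.21) and overlapped between the groups.

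Of 11 detected genes that control the protocadherin cluster or act downstream of it, 8 were above 0 and 3 below, against 49.1% of all features below 0. In this list Rad21 was not detected, with signals of 0.1 to 6.2, and Wapl differed by -0.23 (SE 0.23) with overlapping groups. CTCF and cohesin loop the chosen protocadherin promoters to their enhancers. Smc1a, a cohesin subunit, had log2 signals of 10.65 and 10.82 on the Bmi1-labelled arrays and 9.60 and 9.84 on the control-labelled arrays, a difference of 1.02 (SE 0.20, adjusted p = 0.132). Smc3 differed by 0.75 (SE 0.20), Stag1 by 0.54 (SE 0.20) and Ctcf by 0.56 (SE 0.23). Dnmt3b, a DNA methyltransferase known to act on protocadherin promoters, differed by 0.62 (SE 0.22). Smc1a has 5 probes on the array. The mean of its detected probes differed by 0.27, with an unadjusted limma p of 0.242. With median scaling over all probes Smc3 differed by 0.47, Ctcf by 0.23, Stag1 by 0.20 and Dnmt3b by 0.28, the last 3 with unadjusted limma p of 0.275 to 0.41. Smc3 also differed by 0.47 with an offset of 50, and Ctcf by 0.35 when the second Bmi1-labelled array was left out. With the brightest probes and quantile normalization 6 of the 11 genes were higher without overlap and 1 was lower. Over all features these shares were 28.6% and 26.2%. Smc1a, Smc3, Stag1, Ctcf and Dnmt3b were among the 6. Before normalization Stag1 overlapped between the groups, with signals of 127.4 and 102.8 against 84.7 and 112. Dnmt3b also did, with 114.1 and 101.8 against 70.5 and 103.9. The summed mitosis markers given above were also higher on the Bmi1-labelled arrays, and their part in these values was not tested.

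Of the enzymes that cut cadherins and the repressors of cadherin genes, 6 of 10 were detected. Mmp14, a membrane protease, stood at 8.62 and 8.70 on the Bmi1-labelled arrays and 8.03 and 8.04 on the control-labelled arrays, a difference of 0.62 (SE 0.19, adjusted p = 0.149), which was 0.31 with median scaling over all probes. Zeb1 (-0.30, SE 0.23) and Zeb2 (0.28, SE 0.23), which repress Cdh1, were detected on all arrays and overlapped between the groups, and Snai1 and Snai2 were not detected.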

How the data were processed

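Signal intensity and detection p-values per probe come from the deposited scanner table of Illumina bead arrays, background-subtracted by the authors before deposit (31.2 to 33.9% of signals at or below 0, from the values). The deposited detection p-values were stored as 1 minus p. The deposited processed table holds quantile-normalized log2-like values made with lumi, per the submitters' processing notes, and neither labels nor headers state its exact transform. Of the scanner rows 22 without a probe identifier were left out. Probes were named by the platform annotation.

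From the intensities, neqc of limma 3.58.1 (R 4.3.3, offset 16) gave normalized log2 values. Of 45259 probes 18237 were detected, giving 12809 features, with each gene represented by its brightest probe. Groups were compared with lmFit and eBayes, two-sided, with Benjamini-Hochberg adjustment. The script was tested on simulated data. Members and lists were chosen with earlier results of these data known. Genes named are Bmi1, every detected member, and partners with an unadjusted p under 0.05, with per-array values for the 3 brightest members per class and those with an unadjusted p under 0.05; other genes were named after their values were seen. The number of arrays limits the precision, and no slide or scan date is given. The headers read 1DT for both Bmi1 arrays, so they are numbered by their place in the table.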

Additional observations from a re-analysis of the deposited data

How the results depend on the processing

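No member passed an adjusted p of 0.05 under the alternatives run for single genes. With arrays named as in the scanner table, 32 of 489 single member values turned sign; in the processed table under its own names all 36 of 36 did, with and without the replicate block. Members moved over 1.5 times for 25 of 36 with median scaling over all probes, 21 with an offset of 50, 16 with scaling over detected probes, 8 with the mean of detected probes and 23 without control array 1. Members with an unadjusted limma p under 0.05 numbered 7 in the results above and 14 with median scaling over all probes. There were 4 with an offset of 50 or with the mean of detected probes, and 3 in the processed table under either naming. Without background modelling (signal floored at 16, where partners counted 8 in place of 13) there were also 3. The genes differed between settings. With the signal floored they were Celsr2, Cdh13 and Pcdha6, the last higher on the Bmi1-labelled arrays (0.23). With an offset of 50 they were Celsr2, Celsr3, Pcdh9 and Cdh13. The median of the 36 members, -0.17, was -0.078 with an offset of 50 and -0.35 with median scaling over all probes. It was 0.0056 with median scaling over probes detected on all arrays (chosen after seeing the data), and -0.0195 over all 95 members without the detection filter. In the processed table under its own names the median of the 36 members was 0.088, where all features stood at -0.0062. The median of all features was -0.20 and 0.16 under these 2 scalings, that of partners -0.20 and 0.15, and that of all features also 0.0233 where every array had to pass a detection p of 0.01 and -0.0101 with every probe taken singly.

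With median scaling over all probes the differences of Bmi1 (-0.10), Pcdha6 (-0.15), Fat1 (-0.10), Pcdh17 (-0.15), Pcdh10 (-0.28) and Pcdh15 (-0.0093) turned sign. With scaling over detected probes Pcdhb19 (0.13), Pcdhb14 (0.0118), Pcdhga4 (0.10) and Pcdhgc4 (0.18) did, and with the mean of detected probes Fat1 (-0.0171), Pcdh17 (-0.0294) and Pcdh10 (-0.0094). The causes were not tested.

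Leaving out each array gave 1091 to 3522 features, 2 to 11 members and 3 to 12 partners with an unadjusted p under 0.05. The medians ran from 0.0015 to 0.0218 for all features, -0.19 to -0.068 for members and -0.0272 to 0.14 for partners. Differences that turned sign ranged from -0.13 to 0.60 (Bmi1), -0.0471 to 0.86 (Pcdhb3), -1.13 to 0.29 (Pcdhgc3), -0.15 to 0.14 (Pcdhb19), -0.36 to 0.0118 (Pcdhb14), -0.30 to 0.11 (Pcdhga4), -0.0808 to 0.37 (Pcdha11), -0.23 to 0.44 (Fat1), -0.20 to 0.39 (Pcdh17), -0.0785 to 0.14 (Pcdh10), -0.62 to 0.054 (Pcdh19), -0.33 to 0.53 (Pcdh15) and -0.21 to 0.0145 (Cdh22). When 1 array is left out, the lone array of its group is assumed to vary like the other group.

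Same-numbered columns of the processed table did not deviate together (r = -0.196 for each number). With the replicate number as a replicate block there, 3 members had an unadjusted p under 0.05 and the medians were 0.088 for members and -0.0062 for all features. Pcdhb6, Pcdhgc4 and Cdh20 gave no value with the signal floored, since all arrays were at the floor.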
